A study of Homo sapiens with 6 samples.

Results

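The cancer-testis antigen gene families are represented in the deposited tables by 87 genes of 26475, chosen by the prefixes MAGEA, MAGEB, MAGEC, GAGE, PAGE, XAGE, SPANX, CTAG and SSX and by the name PRAME. A single antisense gene with a matching prefix was left out. Messenger RNA was measured in 6 libraries of human lung cancer cells, 2 each of PC9-BrM4, PC9-AMG and PC9. PC9 is an established lung adenocarcinoma line, and the names of PC9-BrM4 and PC9-AMG mark them as derivatives of it. All 3 lines were cultured in MGS. None of the names BrM4, AMG and MGS is spelled out in the labels, nor whether a derivative is a single clone.

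Cancer-testis genes are transcribed in male germ cells and in some placental tissue, are silent in most other adult tissues, and are transcribed again in many tumours, where their proteins can be seen by T cells. Most of them lie in clusters of recent duplicates on the X chromosome, and their promoters are known to be kept silent in somatic cells by DNA methylation. Several encoded proteins, above all those of the MAGE families, bind ubiquitin ligases and change what these ligases act on. Melanoma-associated antigen names such as MAGEA3, and NY-ESO-1 for CTAG1A and CTAG1B, come from their discovery as tumour antigens and are also familiar from lung cancer.

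Levels are TPM, the length-normalised share of all transcripts in a library. The libraries held between 13848 and 14171 genes at 1 TPM or more, and the Pearson correlation of log2(TPM + 1) across genes was 0.986 to 0.990 between libraries of a line and 0.967 to 0.981 between libraries of different lines. Genes are not independent replicates. The tables used here hold no read counts, and the sequencing depth is therefore unknown. At 1 TPM a gene was covered by between 0.606 and 0.822 reads per base, so levels near 1 TPM rest on few reads. Keratins and EPCAM were abundant in every library. Of 9 epithelial markers, 7 were at 1 TPM or more in at least 2 libraries, and the listed markers summed to between 11356 and 15507 TPM. Of the lung lineage genes among them, SFTPB was listed at 0 in every library and NKX2-1 was at 0.283 TPM or less. NAPSA ran from 0 in PC9-AMG library 2 to 1.69 TPM in PC9 library 2. The 7 male germ cell markers summed to between 0 and 0.802 TPM, and 5 of them, including DDX4, were listed at 0 in all 6 libraries. Markers of other cell types were partly present. Of 5 astrocyte markers, 2 reached 1 TPM, with sums of 20.4 to 33.6 TPM, most of it ALDH1L1, while GFAP and S100B were listed at 0 throughout. SLC1A3, also of astrocytes, was at 3.44 and 2.12 TPM in PC9-BrM4, 0.652 and 0.361 TPM in PC9-AMG and listed at 0 in PC9. Of 6 microglia and macrophage markers, CD68 and CSF1R reached 1 TPM, with sums over the list of 160 to 239 TPM, and AIF1, CX3CR1 and P2RY12 were listed at 0 throughout. Of 3 oligodendrocyte markers, MBP alone reached 1 TPM, at 20.2 to 26.8 TPM, and MOG was listed at 0, and of 4 fibroblast markers COL1A1 alone did, with sums of 9.29 to 17.9 TPM. The part of other cells in the results was not tested.

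Of the 87 genes, 85 lie on the X chromosome. SSX2IP on chromosome 1 matches the prefix SSX but encodes an SSX2-binding centrosomal protein and is not a cancer-testis antigen, and SPANXA2-OT1 is a non-coding transcript. The other 85 genes, PRAME on chromosome 22 included, are the basis of all sums. At least 1 TPM in at least 2 libraries was required for a test, and 20 genes met it, SSX2IP among them. Of the 67 that did not, 51 were listed at 0 in every library, including all 22 GAGE genes and PRAME. The remaining 16 were above 0 somewhere, and 2 of them reached 1 TPM in 1 library. MAGEB2 was at 1.21 and 0.680 TPM in PC9-BrM4 and listed at 0 in PC9-AMG and PC9. XAGE1E was at 0.449 and 1.36 TPM in PC9-BrM4 and listed at 0 in PC9-AMG and PC9. The highest value among the other 14 was 0.756 TPM, for PAGE2 in PC9 library 1.

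The sequences just upstream of 6 genes that stand out in the results below are shown. The relation of these sequences to the levels was not tested. MAGEA3 and MAGEA6 were the most abundant genes, MAGEA4 and XAGE2 were found in PC9-AMG and listed at 0 in PC9, and SPANXB1 and SPANXC differed between all 3 lines. Each is the 250 bases before the gene's start in RefSeq (GRCh38.p14), on the gene's own strand, with CpG, the dinucleotide at which DNA methylation occurs, in capitals. MAGEA3 is on the plus strand (chrX:152698544-152698793) and MAGEA6 on the minus strand (chrX:152769690-152769939), and their windows are identical letter for letter. MAGEA4 (chrX:151912639-151912888), XAGE2 (chrX:52368771-52369020) and SPANXB1 (chrX:141002344-141002593) are on the plus strand and SPANXC (chrX:141242518-141242767) on the minus strand.
MAGEA3 and MAGEA6: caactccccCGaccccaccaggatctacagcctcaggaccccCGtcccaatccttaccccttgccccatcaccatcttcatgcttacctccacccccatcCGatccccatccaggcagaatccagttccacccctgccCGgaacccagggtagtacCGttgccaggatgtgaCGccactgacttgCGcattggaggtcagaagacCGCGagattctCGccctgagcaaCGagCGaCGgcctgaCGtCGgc
MAGEA4: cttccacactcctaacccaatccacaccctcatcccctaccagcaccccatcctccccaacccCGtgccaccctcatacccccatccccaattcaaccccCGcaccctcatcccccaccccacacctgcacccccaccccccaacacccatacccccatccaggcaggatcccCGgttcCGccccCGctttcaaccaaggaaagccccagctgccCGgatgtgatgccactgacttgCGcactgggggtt
XAGE2: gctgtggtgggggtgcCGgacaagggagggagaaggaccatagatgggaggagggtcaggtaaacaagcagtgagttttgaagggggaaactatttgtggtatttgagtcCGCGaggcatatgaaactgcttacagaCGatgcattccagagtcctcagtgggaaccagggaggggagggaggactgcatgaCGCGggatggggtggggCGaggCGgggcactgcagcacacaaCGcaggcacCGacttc
SPANXB1: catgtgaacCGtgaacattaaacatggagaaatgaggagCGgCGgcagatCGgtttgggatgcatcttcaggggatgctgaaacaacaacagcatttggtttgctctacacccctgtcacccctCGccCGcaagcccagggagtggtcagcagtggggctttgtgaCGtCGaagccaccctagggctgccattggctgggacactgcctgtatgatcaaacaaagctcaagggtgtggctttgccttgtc
SPANXC: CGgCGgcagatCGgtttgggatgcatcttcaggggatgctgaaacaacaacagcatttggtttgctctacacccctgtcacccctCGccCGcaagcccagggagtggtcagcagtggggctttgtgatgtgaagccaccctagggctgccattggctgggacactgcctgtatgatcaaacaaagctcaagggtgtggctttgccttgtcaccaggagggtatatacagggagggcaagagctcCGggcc

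MAGEA3 and MAGEA6 each had 15 CpG in this window, XAGE2 10, SPANXB1 8, MAGEA4 7 and SPANXC 6, against a median of 11 over all 35116 RefSeq windows of the same length. Among the tested members other than SSX2IP the number ran from 4 in SPANXD to 15. RefSeq gave a window for 62 of the 87 genes and for 18 of the 20 tested ones. The motif CCGGAA, which holds the core bound by ETS factors, was found on either strand in MAGEA3 and MAGEA6 alone of the tested members, and in 14.5% of all windows. GGGCGG, the core bound by SP factors, was found on either strand in 5 tested members, namely MAGEA4, MAGEC1, MAGEC2, PAGE2B and SSX2IP, and in 42.6% of all windows. The window of SPANXC differed from that of SPANXA1 at 3 bases, and those of SPANXA1 and SPANXA2 were identical.

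**Figure D1:**
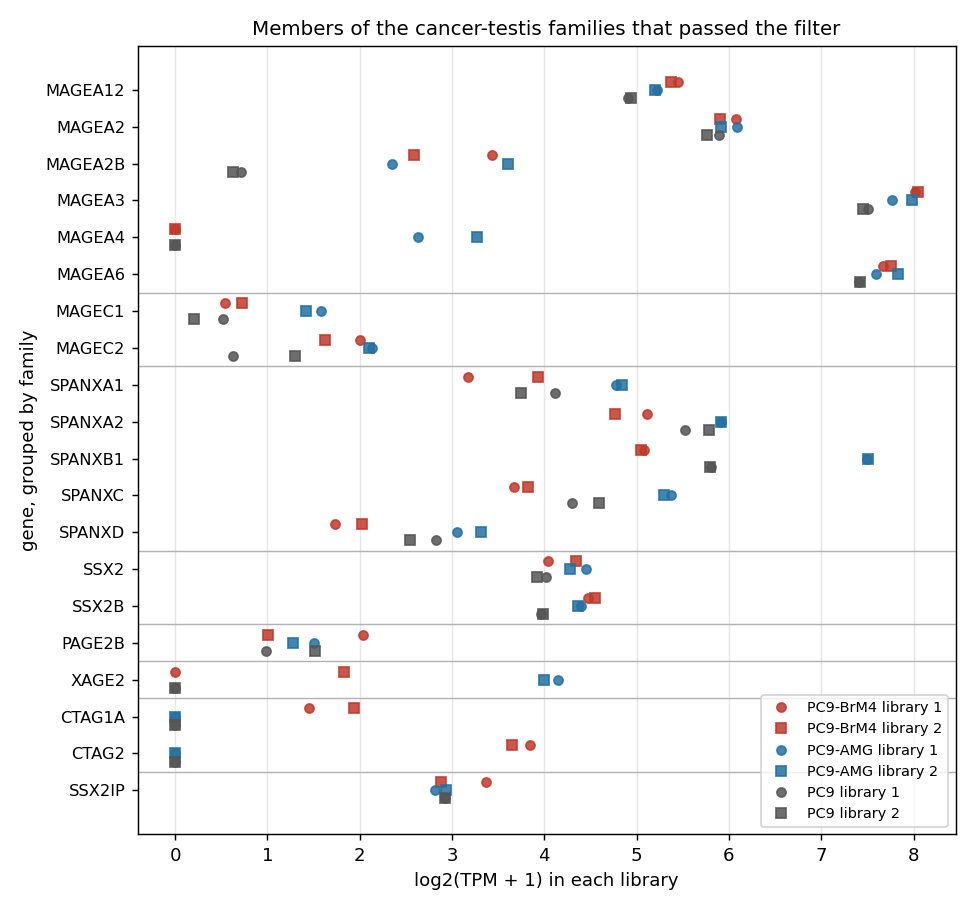
Level of each of the 20 tested genes, as log2(TPM + 1) on the horizontal axis, in every library, with genes grouped by family from top to bottom. Circles are library 1 and squares library 2. MAGEA3 and MAGEA6 lie farthest right in every line, the SPANX genes are ordered with PC9-AMG highest, and CTAG1A, CTAG2 and MAGEA4 lie at 0 in all but 1 line.

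The MAGEA genes supplied most of the cancer-testis transcripts. MAGEA3, whose protein works with the ubiquitin ligase TRIM28, was at 258 and 264 TPM in PC9-BrM4, 217 and 252 TPM in PC9-AMG and 181 and 174 TPM in PC9. MAGEA6, its closest relative, was at 203 and 216 TPM in PC9-BrM4, 192 and 227 TPM in PC9-AMG and 169 and 171 TPM in PC9. For both genes every library of either derivative lay above both PC9 libraries, and the derivatives overlapped for MAGEA6 but not for MAGEA3, which was highest in PC9-BrM4. By mean TPM, MAGEA3 was 698th and MAGEA6 830th of the 14627 tested genes. MAGEA2, another partner of TRIM28, was at 66.7 and 59.0 TPM in PC9-BrM4, 67.2 and 59.5 TPM in PC9-AMG and 58.4 and 53.3 TPM in PC9. MAGEA12 was at 42.5 and 40.4 TPM in PC9-BrM4, 36.4 and 35.8 TPM in PC9-AMG and 29.1 and 29.7 TPM in PC9, with no overlap between the lines. Whether a level reflects how many cells made a transcript or how much each cell made cannot be told apart in these bulk libraries.

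Differences are given on the log2(TPM + 1) scale with a 95% interval, which understates the change of genes at low levels, and were tested with limma across all tested genes with Benjamini-Hochberg adjustment. Whether both libraries of a line came from separate cultures is not in the labels, and the p-values measure the spread between libraries, which may be technical. A gene is called, and said to have risen or fallen, at an adjusted p under 0.05. MAGEA3 rose in PC9-BrM4 against PC9 by 0.55 (0.34 to 0.76, adjusted p = 0.00396) and in PC9-AMG against PC9 by 0.39 (0.18 to 0.60, adjusted p = 0.0366). The first call was lost without PC9 library 2 (adjusted p = 0.0528). The second was lost on leaving out any library but PC9-AMG library 1 (adjusted p between 0.0541 and 0.281) with the libraries centred on their medians (adjusted p = 0.0533), with no filter and with no variance trend (adjusted p = 0.0865 and 0.131). MAGEA6 differed from PC9 by 0.30 in each derivative and was not called, with intervals of 0.08 to 0.53 in PC9-BrM4 and 0.07 to 0.52 in PC9-AMG (adjusted p = 0.0699 and 0.0993). In PC9-BrM4 it was called with a filter at 5 TPM, with only the 4 libraries compared and without either PC9-AMG library (adjusted p between 0.0326 and 0.0486). Since its coding sequence is 98.1% identical to that of MAGEA3, the split of reads between the pair is uncertain. Summed, MAGEA3 and MAGEA6 were at 461 and 480 TPM in PC9-BrM4, 409 and 479 TPM in PC9-AMG and 350 and 345 TPM in PC9. The sum rose by 0.44 in PC9-BrM4 and by 0.35 in PC9-AMG, each against PC9 (adjusted p = 0.0106 and 0.0472). It was not refitted with a library left out or with other settings.

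MAGEA12 rose in PC9-BrM4 by 0.48 (0.24 to 0.73, adjusted p = 0.0161), a call lost without PC9-BrM4 library 1 or either PC9 library (adjusted p between 0.0623 and 0.165). It differed by 0.29 (0.04 to 0.53) in PC9-AMG against PC9 and was not called (adjusted p = 0.141). MAGEA2 was called in neither derivative, with differences of 0.17 (-0.09 to 0.43) in PC9-BrM4 and 0.18 (-0.08 to 0.44) in PC9-AMG. MAGEA2B was at 9.78 and 5.02 TPM in PC9-BrM4, 4.10 and 11.2 TPM in PC9-AMG and 0.640 and 0.551 TPM in PC9, and was called higher in PC9-BrM4 (2.34, adjusted p = 0.00345) and in PC9-AMG (2.31, adjusted p = 0.0108). The calls were lost without PC9-BrM4 library 1 and without PC9-AMG library 2 (adjusted p = 0.0671 and 0.0791), the second also with no filter and with no variance trend (adjusted p = 0.0811 and 0.0539). MAGEA2B reached 1 TPM in the derivative libraries alone, so the limit given below for MAGEA4 holds for these p-values too. It has the same coding sequence as MAGEA2, base for base. The pair summed to 76.5 and 64.0 TPM in PC9-BrM4, 71.3 and 70.6 TPM in PC9-AMG and 59.0 and 53.8 TPM in PC9, and the sum was not called in either derivative (0.31, 0.05 to 0.57, adjusted p = 0.103 in PC9-BrM4, and 0.33, 0.07 to 0.59, adjusted p = 0.116 in PC9-AMG). How far the calls of MAGEA2B rest on the sharing of reads between the copies was not tested.

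MAGEA4 was above 0 in PC9-AMG alone. This antigen, which is a target of engineered T cell therapies and binds the ubiquitin ligase RAD18, was at 5.20 and 8.68 TPM in PC9-AMG and at 0 in all libraries of PC9-BrM4 and PC9. It differed by 2.95 (2.33 to 3.57) in PC9-AMG, against PC9 (adjusted p = 0.00108) and against PC9-BrM4 (adjusted p = 0.000148). Because it passed the filter through the PC9-AMG libraries alone, a difference was bound to appear, and these p-values lend it no added weight. Its coding sequence is 81.4% to 82.9% identical to those of MAGEA2, MAGEA3, MAGEA6 and MAGEA12, farther from them than they are from each other. Both calls were kept in every alternative tried. As the alternatives refit the same libraries, this lends no added weight either. The other 8 MAGEA genes were below 1 TPM in every library, and 4 of those were at 0 throughout.

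MAGEC1 and MAGEC2, neighbours of the SPANX cluster on the X chromosome, were low in all lines and higher in PC9-AMG than in PC9. MAGEC3, the other member, was not tested and was at 0.494 TPM or less in every library. MAGEC1 was at 2.0 and 1.67 TPM in PC9-AMG, 0.458 and 0.648 TPM in PC9-BrM4 and 0.439 and 0.149 TPM in PC9. MAGEC2, another activator of TRIM28, was at 3.40 and 3.29 TPM in PC9-AMG, 3.0 and 2.09 TPM in PC9-BrM4 and 0.547 and 1.46 TPM in PC9. No library of PC9-AMG overlapped with PC9 for either gene. In PC9-AMG against PC9 they rose by 1.14 (0.55 to 1.72, adjusted p = 0.0330) and by 1.15 (0.55 to 1.76, adjusted p = 0.0340). MAGEC1 passed the filter through PC9-AMG alone, with the limit given for MAGEA4. The call of MAGEC1 was lost without either PC9-AMG or either PC9 library (adjusted p between 0.0845 and 0.195), and that of MAGEC2 on leaving out any library but PC9 library 2 (adjusted p between 0.0525 and 0.237). MAGEC2 in PC9-BrM4 differed from PC9 by 0.85 (0.25 to 1.45) and missed the threshold (adjusted p = 0.0584), which it passed with robust moderation and without PC9 library 2 (adjusted p = 0.0368 and 0.0366). Between the derivatives, MAGEC1 rose by 0.87 in PC9-AMG (0.28 to 1.45, adjusted p = 0.0455), a call lost on leaving out any library but PC9 library 2 (adjusted p between 0.0515 and 0.173).

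Among the SPANX genes, which encode small nuclear proteins of maturing sperm, the mean was highest in PC9-AMG and lowest in PC9-BrM4 for all 5 tested members. SPANXB1 was at 179 and 180 TPM in PC9-AMG, 32.9 and 32.2 TPM in PC9-BrM4 and 55.0 and 54.5 TPM in PC9. SPANXC was at 40.5 and 38.2 TPM in PC9-AMG, 11.7 and 13.2 TPM in PC9-BrM4 and 18.6 and 23.2 TPM in PC9. SPANXD was at 7.29 and 8.93 TPM in PC9-AMG, 2.33 and 3.08 TPM in PC9-BrM4 and 6.09 and 4.84 TPM in PC9. None of these genes had overlapping values between any of the lines, with the limit on overlap given above. SPANXB1 rose by 1.70 in PC9-AMG against PC9 (1.48 to 1.91, adjusted p = 0.000138) and fell by 0.73 in PC9-BrM4 against PC9 (interval -0.95 to -0.52, adjusted p = 0.000917). Both calls were kept in every alternative, and SPANXB1 was the tested gene of the family least like the others, with a coding sequence 85.3% to 88.1% identical to theirs. In PC9-AMG against PC9-BrM4 it differed by 2.43 (2.21 to 2.64, adjusted p = 1.45e-06).

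SPANXC rose by 0.89 in PC9-AMG (0.57 to 1.21, adjusted p = 0.00948) and fell by 0.70 in PC9-BrM4 (-1.02 to -0.38, adjusted p = 0.0100), each against PC9. The rise was lost without either PC9-AMG library or without PC9 library 1 (adjusted p between 0.0614 and 0.107) and with no filter (adjusted p = 0.0522), and the fall without PC9-BrM4 library 1 or PC9 library 2 (adjusted p = 0.0691 and 0.145). SPANXD, 99.0% identical to SPANXC in its coding sequence, fell by 0.80 in PC9-BrM4 (-1.25 to -0.36, adjusted p = 0.0239). That call was lost without PC9-BrM4 library 1 or either PC9 library (adjusted p between 0.0632 and 0.198) and with no filter (adjusted p = 0.0702). SPANXD differed by 0.50 (0.05 to 0.94) in PC9-AMG against PC9 and was not called (adjusted p = 0.159). Between the derivatives the distance was wider. SPANXC rose by 1.59 and SPANXD by 1.3 in PC9-AMG against PC9-BrM4, calls kept in every alternative (adjusted p = 0.000119 and 0.00233).

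SPANXA1 and SPANXA2 have identical coding sequences and lie next to each other in opposite directions. Their sum was 85.5 and 86.9 TPM in PC9-AMG, 41.5 and 40.5 TPM in PC9-BrM4 and 61.6 and 66.7 TPM in PC9, again with no overlap. The sum rose by 0.42 in PC9-AMG (0.20 to 0.65, adjusted p = 0.0374) and fell by 0.63 in PC9-BrM4 (-0.86 to -0.41, adjusted p = 0.00293), each against PC9. In PC9-AMG against PC9-BrM4 it rose by 1.06 (adjusted p = 0.000171). Taken singly, SPANXA1 was at 26.4 and 27.7 TPM in PC9-AMG, 7.99 and 14.3 TPM in PC9-BrM4 and 16.4 and 12.4 TPM in PC9, so that its PC9-BrM4 and PC9 values overlapped. SPANXA2 was at 59.1 and 59.2 TPM in PC9-AMG, 33.5 and 26.2 TPM in PC9-BrM4 and 45.2 and 54.3 TPM in PC9. SPANXA1 was called higher in PC9-AMG against PC9 (0.88, adjusted p = 0.0495), a call lost without either PC9-AMG or either PC9 library (adjusted p between 0.0873 and 0.279). Its difference between PC9-BrM4 and PC9 was -0.38 (-0.90 to 0.14, adjusted p = 0.302), a call only where PC9-BrM4 library 2 was absent (adjusted p = 0.0499). SPANXA2 was called lower in PC9-BrM4 against PC9 (-0.72, adjusted p = 0.00832), a call lost without PC9-BrM4 library 2 or PC9 library 2 (adjusted p = 0.0538 and 0.0940). The 5 SPANXN genes were listed at 0 in every library.

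**Figure D2:**
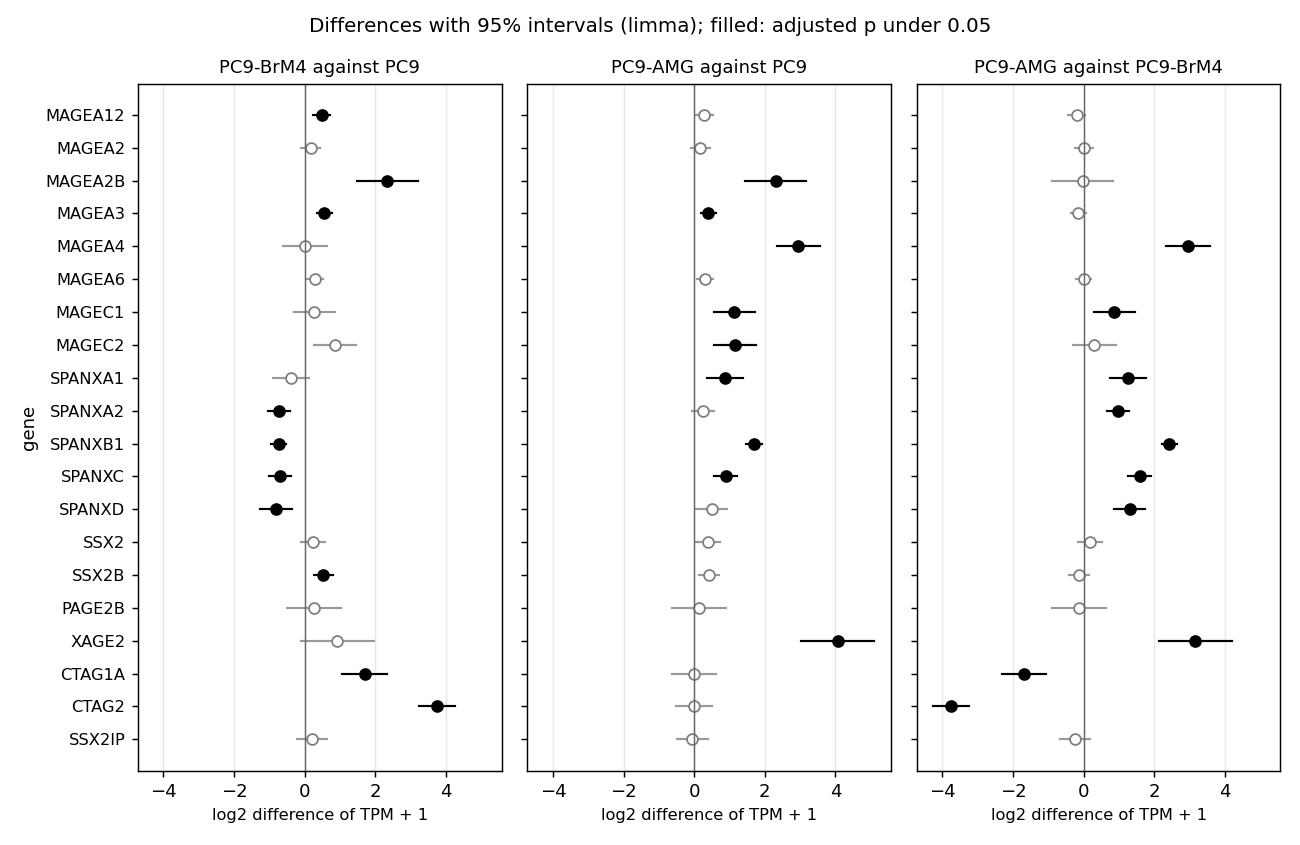
Log2 difference of TPM + 1 on the horizontal axis for each tested gene, with its 95% interval from limma as a line, in 3 comparisons. Filled points passed an adjusted p of 0.05. The 5 SPANX genes lie right of 0 in both comparisons of PC9-AMG and left of 0 in PC9-BrM4 against PC9, and CTAG2 and XAGE2 have the widest shifts.

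Of the SSX genes, which are known as fusion partners of SS18 in synovial sarcoma, the pair SSX2 and SSX2B alone was above 1 TPM. SSX2 was at 15.5 and 19.3 TPM in PC9-BrM4, 20.8 and 18.4 TPM in PC9-AMG and 15.2 and 14.1 TPM in PC9. SSX2B was at 21.1 and 22.3 TPM in PC9-BrM4, 20.2 and 19.6 TPM in PC9-AMG and 14.6 and 14.8 TPM in PC9. Their coding sequences are identical, and their sum was at 36.6 and 41.6 TPM in PC9-BrM4, 41.0 and 38.0 TPM in PC9-AMG and 29.8 and 28.9 TPM in PC9, every derivative library lying above both PC9 libraries. The sum rose by 0.40 in PC9-BrM4 against PC9 (0.13 to 0.66, adjusted p = 0.0468), and in PC9-AMG against PC9 it differed by 0.41 (0.15 to 0.68) and was not called (adjusted p = 0.0617). SSX2B alone was called in PC9-BrM4 (0.53, adjusted p = 0.0192), a call lost without PC9-BrM4 library 2 or either PC9 library (adjusted p between 0.0540 and 0.167) and in the table over all libraries (adjusted p = 0.0989). In PC9-AMG SSX2B differed from PC9 by 0.41 and was not called (adjusted p = 0.0776) except with median centring, quantile normalization or FPKM (adjusted p between 0.0446 and 0.0490). SSX2 alone was called in no comparison, and in the table over all libraries its differences from PC9 turned to -0.93 in PC9-BrM4 and -0.92 in PC9-AMG. Of the other 9 genes of the family, SSX1 reached 0.219 TPM in 1 library and 8 were at 0. SSX2IP, the centrosomal gene, was at 9.35 and 6.36 TPM in PC9-BrM4, 6.03 and 6.65 TPM in PC9-AMG and 6.60 and 6.58 TPM in PC9 and was not called in any comparison.

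The library tables list each symbol of a copied pair at both of its places, and the share given to each differed between libraries. In PC9 library 1 the plus-strand copy was credited to SSX2, with 12.1 TPM, and to SSX2B with 0. PC9 library 2 credited the same place to SSX2 with 2.0 TPM and to SSX2B with 12.3 TPM. The remaining 4 libraries resembled PC9 library 2, with SSX2B at 16.2 to 17.7 TPM there. At the plus-strand copy of the SPANXA pair, SPANXA1 was at 0.232 and 6.55 TPM in PC9-BrM4, 10.9 and 11.3 TPM in PC9-AMG and 6.15 and 0.207 TPM in PC9. The sums of the pairs are set beside the single genes for this reason. Their calls were not recomputed under the alternatives.

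**Figure D3:**
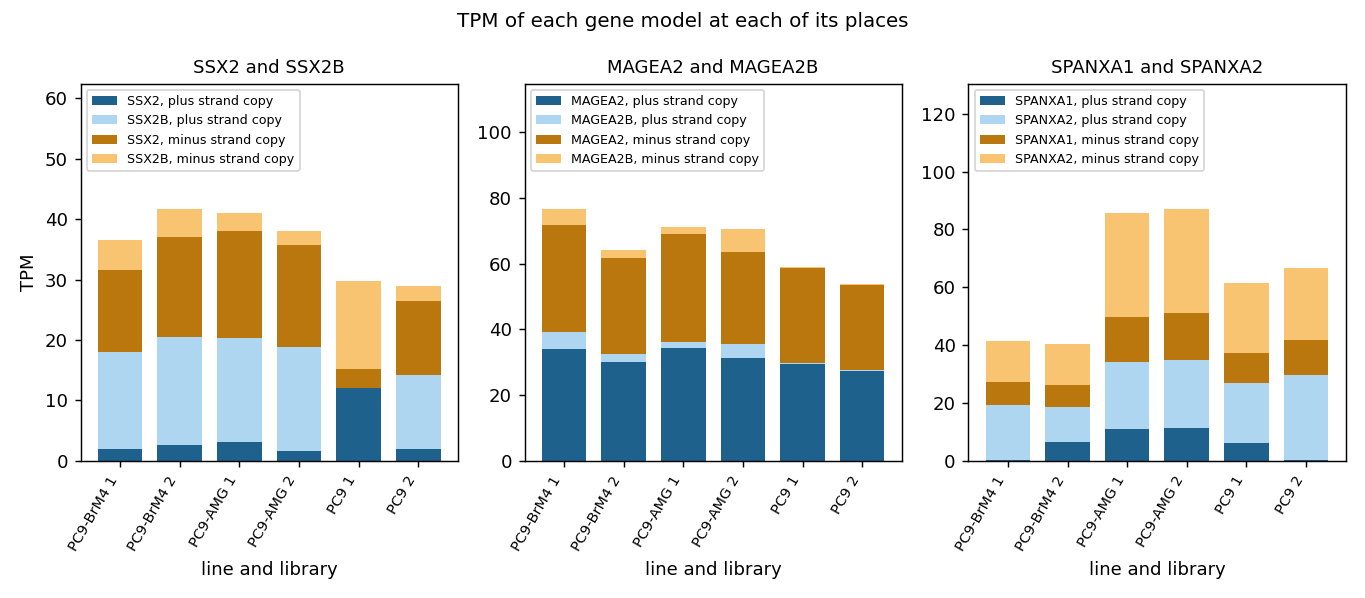
TPM on the vertical axis of SSX2 with SSX2B, MAGEA2 with MAGEA2B and SPANXA1 with SPANXA2 in each library, stacked by symbol and by the strand of the place it was credited to. Within a line the pair totals differ most for MAGEA2 with MAGEA2B in PC9-BrM4, at 76.5 and 64.0 TPM. The split by symbol turns round in PC9 library 1 for the SSX2 pair.

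XAGE2 and PAGE2B belong to families of small acidic proteins related to GAGE. XAGE2 was at 16.7 and 15.0 TPM in PC9-AMG, 0 and 2.57 TPM in PC9-BrM4 and 0 in each PC9 library. It differed by 4.07 in PC9-AMG against PC9 (3.04 to 5.11, adjusted p = 0.00212) and by 3.16 against PC9-BrM4 (2.12 to 4.19, adjusted p = 0.00182). The first call was lost without PC9-AMG library 2 (adjusted p = 0.0526). XAGE2 reached 1 TPM in both libraries of PC9-AMG alone, and the same limit holds. In PC9-BrM4 against PC9 XAGE2 was not called (0.92, -0.12 to 1.95, adjusted p = 0.216), but it was without PC9-BrM4 library 1, the library in which it is listed at 0 (adjusted p = 0.00683). PAGE2B was at 3.09 and 1.01 TPM in PC9-BrM4, 1.83 and 1.43 TPM in PC9-AMG and 0.982 and 1.86 TPM in PC9, and its values overlapped between all 3 lines. It was called in no comparison.

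CTAG1A and CTAG2 were above 0 in PC9-BrM4 alone. CTAG2, which encodes LAGE-1, was at 13.4 and 11.6 TPM in PC9-BrM4 and was listed at 0 in both PC9-AMG and both PC9 libraries. CTAG1A, which encodes NY-ESO-1, was at 1.74 and 2.82 TPM in PC9-BrM4 and was likewise listed at 0 in the other 4 libraries. The longest listed coding sequences of CTAG1A and CTAG2, of 633 bases each, are 89.6% identical. That of CTAG1B, of 543 bases, is 67.4% identical to that of CTAG2 and 73.1% to that of CTAG1A. How far the low level of CTAG1A rests on reads shared with CTAG2 was not tested. CTAG2 differed from PC9 by 3.75 (3.24 to 4.26, adjusted p = 7.84e-06) and CTAG1A by 1.70 (1.07 to 2.32, adjusted p = 0.00348). Both passed the filter through PC9-BrM4 alone, so that the same limit as for MAGEA4 holds for these p-values. In PC9-AMG against PC9-BrM4 both fell, by the same amounts (adjusted p = 1.27e-05 and 0.00341). All of these calls were kept in every alternative that gave a value. Since the alternatives refit the same libraries, the limit covers this too. CTAG1B, the second copy of the NY-ESO-1 gene, was listed at 0 in all libraries at both of its places, so the values of CTAG1A stand for the pair. LAGE3, the related gene nearby that is transcribed in most tissues, was at 136 and 165 TPM in PC9-BrM4, 153 and 160 TPM in PC9-AMG and 136 and 146 TPM in PC9 and was not called in any comparison (adjusted p between 0.421 and 0.724).

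Summed over the 85 genes, cancer-testis transcripts were at 730 and 738 TPM in PC9-BrM4, 901 and 969 TPM in PC9-AMG and 612 and 611 TPM in PC9. The MAGEA family held 79.5% and 79.2% of that sum in PC9-BrM4, 58.0% and 61.3% in PC9-AMG and 71.5% and 70.2% in PC9. The SPANX family held 12.1% and 12.04% in PC9-BrM4, 34.7% and 32.4% in PC9-AMG and 23.1% and 24.4% in PC9. In TPM the SPANX family stood at 88.4 and 88.9 in PC9-BrM4, 312 and 314 in PC9-AMG and 141 and 149 in PC9. The mean of PC9-AMG was 2.16 times and that of PC9-BrM4 0.610 times the mean of PC9. The MAGEA family stood at 580 and 585 TPM in PC9-BrM4, 523 and 595 TPM in PC9-AMG and 438 and 429 TPM in PC9. Sums were not tested. They depend on whether the copies of a pair are counted at both places, and in the deposited table over all libraries, which lists each gene once, the SPANX sums were 66.3 and 67.1 TPM in PC9-BrM4, 261 and 262 TPM in PC9-AMG and 107 and 112 TPM in PC9. The SSX sums there were 18.1 and 20.4 TPM in PC9-BrM4, 20.3 and 19.1 TPM in PC9-AMG and 12.1 and 14.3 TPM in PC9. With both places counted they were 36.6 and 41.6 TPM in PC9-BrM4, 41.0 and 38.3 TPM in PC9-AMG, which includes SSX1, and 29.8 and 28.9 TPM in PC9.

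**Figure D4:**
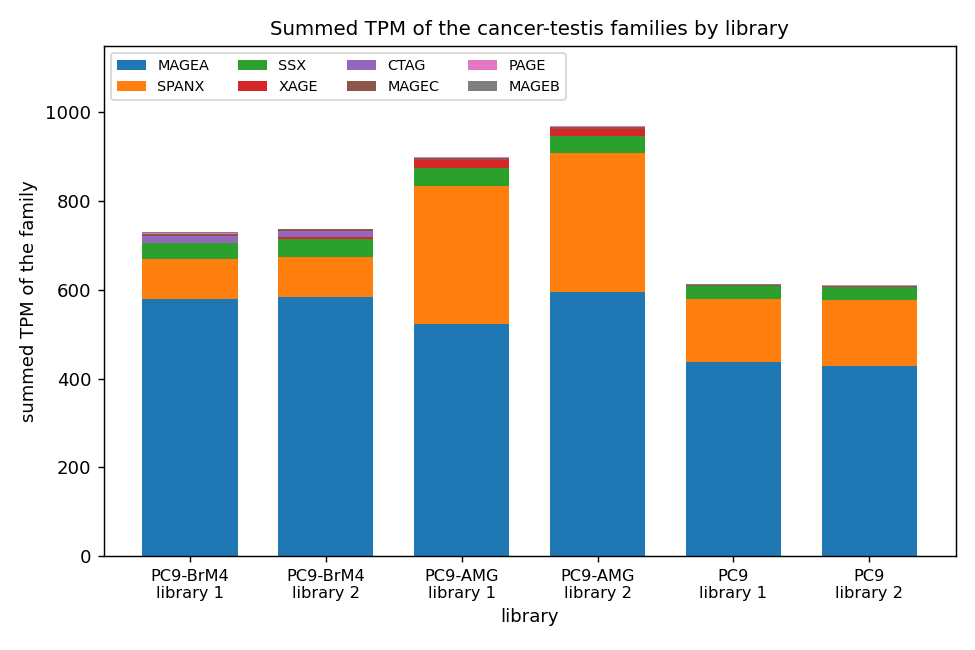
Summed TPM on the vertical axis of the cancer-testis families in each library, stacked by family. PC9-AMG has the highest totals, at 901 and 969 TPM, and the SPANX layer is widest there and narrowest in PC9-BrM4.

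Counted together, 10 of the 20 tested members were called in PC9-BrM4 against PC9, 6 higher and 4 lower, beside 16.3% of all tested genes (9.89% higher and 6.45% lower). In PC9-AMG against PC9, 9 were called, all of them higher, beside 7.49% of all tested genes (3.67% higher and 3.82% lower). In PC9-AMG against PC9-BrM4, 10 were called, 8 higher and 2 lower, beside 18.6% of all tested genes (6.31% higher and 12.3% lower). Each share is inflated by the filter, since 5 members, namely CTAG1A, CTAG2, MAGEA4, MAGEC1 and XAGE2, reached 1 TPM in both libraries of 1 line alone. MAGEA2B reached it in both derivatives but not in PC9, which inflates the counts against PC9 further. The copied genes in these counts share reads and are not independent. The first count was lower without PC9 library 2, and the second without either PC9-AMG library or PC9 library 1. The number of all tested genes called was lower in these fits too. Of the other 465 tested genes on the X chromosome, 35 were higher and 32 lower in PC9-BrM4 and 8 higher and 14 lower in PC9-AMG, each against PC9.

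Other genes lie between and beside the members. Within 250 kb of a tested member on the X chromosome lay 36 other tested genes. Of these, 6 were called higher and 2 lower in PC9-BrM4 against PC9, and 1 higher and 0 lower in PC9-AMG against PC9. Over all tested genes the shares called were 16.3% and 7.49%. CSAG3 and CSAG1, which are themselves cancer-testis genes and lie among MAGEA2, MAGEA3, MAGEA6 and MAGEA12, were called in no comparison. CSAG1 differed from PC9 by 0.01 in PC9-BrM4 and 0.06 in PC9-AMG, and CSAG3 by -0.14 and -0.01. Near the CTAG genes, ATP6AP1, a subunit gene of the proton pump of acidic organelles, was at 309 and 311 TPM in PC9-BrM4, 183 and 173 TPM in PC9-AMG and 184 and 183 TPM in PC9. It rose by 0.75 in PC9-BrM4 (adjusted p = 0.000305), as did the locus CH17-340M24.3 by 0.68, while RPL10 fell by 0.32. DKC1, the dyskerin gene near CTAG2, rose in PC9-BrM4 by 0.43 and in PC9-AMG by 0.58.

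Beside MAGEA4, the GABA receptor gene GABRE was at 6.04 and 2.61 TPM in PC9-AMG, 0.0748 and 0.223 TPM in PC9-BrM4 and 3.98 and 3.57 TPM in PC9. It fell by 2.06 in PC9-BrM4 against PC9 (adjusted p = 0.00187), where MAGEA4 was at 0 in both lines, and its PC9-AMG and PC9 values overlapped. Near SPANXB1 and SPANXC, which fell in PC9-BrM4, LDOC1 rose there by 0.56. NSDHL, a cholesterol synthesis gene near the MAGEA cluster, rose by 0.42 and MTRNR2L10 near PAGE2B by 0.54. In PC9-AMG against PC9-BrM4, GABRE rose by 2.14 and RPL10 by 0.38, while ATP6AP1 fell by 0.79, CH17-340M24.3 by 0.78 and LDOC1 by 0.34.

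**Figure D5:**
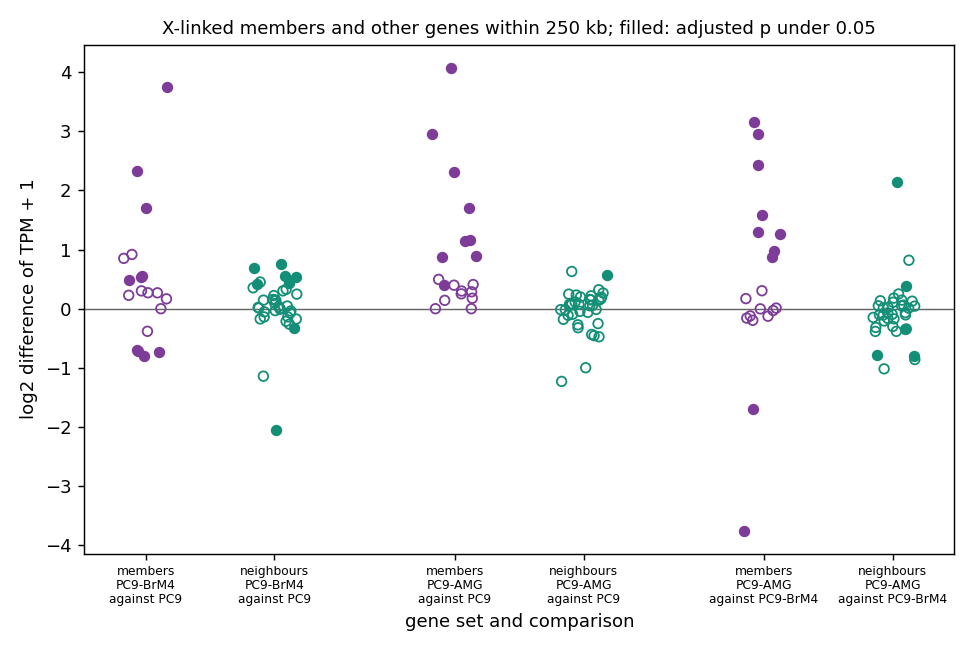
Log2 difference of TPM + 1 on the vertical axis for the X-linked tested members and for the 36 other tested genes within 250 kb of them, in 3 comparisons, with a small sideways scatter. Filled points passed an adjusted p of 0.05. Among the neighbours GABRE has the lowest value, -2.06, in PC9-BrM4 against PC9.

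Genes that act with the families were counted from lists. Over all tested genes, 16.3% were called in PC9-BrM4 and 7.49% in PC9-AMG, each against PC9, and 18.6% between the derivatives. In a list of other cancer-testis genes, 17 of 68 were tested. LY6K, a surface protein gene, rose by 0.80 in PC9-BrM4 and CT47A2 rose by 1.46 in PC9-AMG, each against PC9, with no other call in those comparisons. CT47A2 was at 1.87 and 1.64 TPM in PC9-AMG, 0 and 0.190 TPM in PC9-BrM4 and was listed at 0 in PC9. It passed the filter through PC9-AMG alone, with the limit given for MAGEA4. The list's median difference was 0.01 in PC9-BrM4 and -0.01 in PC9-AMG, beside 0.09 and -0.05 over all tested genes. Of the 5 tested MAGE genes of the widely transcribed type, MAGED1 fell by 0.56 in PC9-BrM4 and by 0.42 in PC9-AMG, at 202 and 203 TPM in PC9-BrM4, 232 and 215 TPM in PC9-AMG and 300 and 298 TPM in PC9.

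Of 13 tested ubiquitin ligase partners and targets of MAGE proteins, 1 was called higher and 1 lower in PC9-BrM4 against PC9. LNX1 fell there by 1.01. None was called in PC9-AMG against PC9. For this and the following lists, the shares called over all tested genes were 16.3% and 7.49%. TRIM28, the partner of MAGEA3, MAGEA6 and MAGEC2, was at 267 and 211 TPM in PC9-AMG, 151 and 147 TPM in PC9-BrM4 and 184 and 184 TPM in PC9, and rose by 0.67 in PC9-AMG against PC9-BrM4 (adjusted p = 0.00359). In the DNA methylation machinery, with 15 genes tested, TDG rose by 0.54 and MBD3 by 0.45 in PC9-BrM4 against PC9, and none was called in PC9-AMG against PC9. Of 23 histone regulators tied to cancer-testis genes, SUV39H2 rose by 0.79 and CBX3 by 0.41 in PC9-BrM4, and HDAC1 fell by 0.38 in PC9-AMG, each against PC9. Their medians were 0.10 in PC9-BrM4 and -0.01 in PC9-AMG. Between PC9-AMG and PC9-BrM4, 2 ligase partners were higher and 3 lower in PC9-AMG, beside 6.31% and 12.3% of all tested genes. The calls numbered 1 and 1 in the methylation list and 1 and 1 among the other cancer-testis genes. They numbered 0 and 2 among the histone regulators and 0 and 0 among the widely transcribed MAGE genes.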

How the data were processed

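HISAT2 2.1.0, StringTie 1.3.4d and the human build hg38 are named in the submitters' processing notes; the annotation is not given in the sources used here. Per the labels' protocols, RNA was extracted with TRIzol and made into stranded mRNA libraries. What mix in the library names stands for is not stated. The deposited TPM, FPKM and coverage per gene were computed by the authors with StringTie, and TPM sums to the same total in every library. Rows of a gene with several places in a library table were summed, giving 26485 genes.

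The 14627 genes that reached 1 TPM in 2 or more libraries were fitted by limma 3.58.1 (R 4.3.3) on the log2(TPM + 1) scale, as means of the lines over all 6 libraries, with empirical Bayes moderation and a variance trend (3 residual and 6.81 prior degrees of freedom). Tests were two-sided, and p-values were adjusted over all tested genes. Sums of copies replaced the single copies in a fit of their own. Coding identity came from pairwise alignment (Biopython 1.88) of the longest GENCODE 29 coding sequence of each gene. The method was tested on simulated data. Every tested member, its called neighbours and up to 4 called genes per list were to be named, and the text gives a selection from the lists; LAGE3 was named after its values were seen. A few genes of the lists are not reported here. The members and lists were chosen with earlier results of these data known.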

Additional observations from a re-analysis of the deposited data

How the results depend on the processing

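The 60 member differences were recomputed under 20 alternatives, of which 6 left out 1 library each and the others changed the scaling, the pseudocount (0.1 or 0.5), the filter (none or 5 TPM), the unit (FPKM), the source table, the moderation, the libraries fitted or the treatment of copies. Of 1152 values, 1034 kept their direction and their side of the threshold, 72 calls were lost, 11 were gained and 35 turned their sign, none of them called either way; members that did not pass a filter, or were summed with a copy, gave no value there. Of the 29 calls, 12 were kept throughout. Some of the 12 were of CTAG1A, CTAG2, MAGEA4 and XAGE2, to which the limit of the filter applies. The others were of SPANXB1, SPANXC and SPANXD. The number of members called ranged between 5 and 11 in PC9-BrM4 against PC9, between 2 and 7 in PC9-AMG against PC9 and between 8 and 10 in PC9-AMG against PC9-BrM4 when a library was left out. In PC9-AMG against PC9 it was 4 of 36 tested with no filter, beside 250 of 18978 over all genes tested. Without the variance trend it was 5 of 20, beside 325 of 14627. In both comparisons with PC9, leaving out a library of the lines compared also lowered the number of all tested genes called. In PC9-AMG against PC9, SPANXA1 was lost with median centring, quantile normalization, rescaling without the 100 highest genes, either pseudocount, no filter, robust moderation, no variance trend and the table over all libraries, MAGEA3, MAGEA2B and MAGEC2 with no filter or no variance trend, SPANXC with no filter, MAGEA3 and MAGEC2 with only the 4 libraries compared, and MAGEC1 with the pseudocount of 0.1. The table over all libraries, which lists a copied gene once, lost SPANXA2 and SSX2B in PC9-BrM4 against PC9 and SPANXA1 and SPANXA2 in PC9-AMG against PC9-BrM4, where either pseudocount lost MAGEC1. In a fit without a library, its lone partner is assumed to vary like the other lines. Median centring shifted the median of all tested genes by -0.10 in PC9-BrM4 against PC9 and by 0.17 in PC9-AMG against PC9-BrM4. Among the turned signs, the table over all libraries gave 0.055 for SPANXA1 and -0.93 for SSX2 in PC9-BrM4 against PC9, -0.081 for SPANXA2 and -0.92 for SSX2 in PC9-AMG against PC9, and -0.019 for MAGEA2, 0.20 for MAGEA2B and 0.024 for SSX2B in PC9-AMG against PC9-BrM4. Median centring, quantile normalization and FPKM gave 0.019, 0.014 and 0.0069 for SSX2IP in PC9-AMG against PC9. In PC9-AMG against PC9-BrM4, median centring gave 0.14 for MAGEA2B, 0.015 for MAGEA3, 0.17 for MAGEA6, 0.046 for PAGE2B and 0.051 for SSX2B. Quantile normalization gave 0.14, 0.050, 0.0073 and 0.050 for MAGEA2B, MAGEA6, PAGE2B and SSX2B, rescaling 0.017 and 0.051, and FPKM 0.072 and 0.11, for MAGEA2B and MAGEA6. On leaving out a library the ranges that crossed 0 were, in PC9-BrM4 against PC9, -0.24 to 0.78 for PAGE2B, -0.76 to 0.00053 for SPANXA1 and -0.045 to 0.45 for SSX2IP. In PC9-AMG against PC9 they were -0.12 to 0.41 for PAGE2B and -0.11 to 0.011 for SSX2IP, and in PC9-AMG against PC9-BrM4 -0.076 to 0.097 for MAGEA2, -0.66 to 0.60 for MAGEA2B, -0.12 to 0.12 for MAGEA6 and -0.64 to 0.38 for PAGE2B. Deviations of libraries with the same number were uncorrelated (between -0.0388 and 0.0292), so no shift shared by them was seen. Whether such libraries were grown or prepared together is not in the labels. The replicate block left the counts at 10, 9 and 10. The absence of read counts limits every value near 1 TPM and every level listed at 0.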

Other observations

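Some genes that present antigens, or whose proteins bind the motifs named above, were called as well. Of all tested genes, 16.3% were called in PC9-BrM4 and 7.49% in PC9-AMG, each against PC9. In antigen presentation, with 15 genes tested, HLA-C rose by 0.26 in PC9-BrM4 against PC9, and it was at 881 and 937 TPM in PC9-BrM4, 799 and 783 TPM in PC9-AMG and 746 and 775 TPM in PC9. B2M, which encodes the light chain of HLA class I molecules, fell by 0.33 in PC9-AMG against PC9 and was at 1987 and 2348 TPM in PC9-AMG, 2363 and 2526 TPM in PC9-BrM4 and 2743 and 2693 TPM in PC9. ERAP2, a peptide-trimming enzyme gene, fell by 0.59 in PC9-AMG against PC9. The median of the list was 0.09 in PC9-BrM4 and -0.02 in PC9-AMG, beside 0.09 and -0.05 over all tested genes.

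Of 10 ETS and SP factors, ELF3 fell in both derivatives. It was at 144 and 149 TPM in PC9-BrM4, 174 and 159 TPM in PC9-AMG and 317 and 314 TPM in PC9, with log2 differences of -1.10 and -0.92 (limma, adjusted p = 4.26e-05 and 0.00108). ETV4 and ETV5 rose in PC9-BrM4 against PC9 by 0.40 and 0.50. Although PRAME was listed at 0, 7 of its partners were tested, and the retinoic acid receptor gene RARA fell by 0.52 in PC9-BrM4 and by 0.71 in PC9-AMG, and RARG by 0.54 in PC9-BrM4, each against PC9. Both derivatives are compared with the same PC9 libraries.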
